A study of Capra hircus with 2 samples.

Results

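The miR-181 family was measured in the mammary gland of the dairy goat (Capra hircus). Its mature 5p members are miR-181a, miR-181b, miR-181c and miR-181d. They were found by sequence, as tags of at least 18 nt that started where the mature miRNA starts, or lacked 1 to 2 bases there, matched it without mismatch and were at most 3 nt longer. All 4 members and 5 of the 6 3p arms searched had a tag, among 191 miRNA names searched in all. Together they held 44229 of the 18031615 clean tags of the early lactation library and 9787 of the 7385833 clean tags of the early involution library, in 117 distinct sequences. No tag that fitted a family member also fitted another miRNA.

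Each library was made from RNA of 5 goats at the same stage, pooled in equal amounts. Early lactation was sampled on day 10 after parturition. Early involution was sampled on day 5 after weaning was forced at late lactation. The labels also give day 218 after parturition, without saying whether it is the day of weaning or of sampling. There was 1 library per stage and no replicate, so the spread between goats is unknown, no test was possible, and intervals cover counting error only. Weaning and the time since parturition cannot be told apart in this design, and in a tissue library fewer cells of a type cannot be told apart from less RNA per cell.

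A microRNA binds its mRNA targets mainly through its seed, the bases near its 5′ end, and lowers their translation and stability. The miR-181 members share 1 seed and are best known from lymphocyte development, where miR-181a tunes the sensitivity of the T cell receptor. In mammals they are made from 3 clusters: miR-181a-1 with miR-181b-1, miR-181a-2 with miR-181b-2, and miR-181c with miR-181d. For goat assembly ARS1.2, the gene table of RefSeq lists MIR181B, MIR181C and MIR181D, with MIR181C and MIR181D next to each other.

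The 5p sequences below show how little separates the members. They are read from the deposited tags (the most abundant tag of the mature length for each), 5′ to 3′, with the seed, bases 2 to 8, in capitals.
miR-181a: aACATTCAacgctgtcggtgagt
miR-181b: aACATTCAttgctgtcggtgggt
miR-181c: aACATTCAacctgtcggtgagt
miR-181d: aACATTCAttgttgtcggtgggt
Counted from the 5′ end, miR-181b differs from miR-181a by A9T, C10T and A21G. From miR-181b, miR-181d differs by C12T. Deleting the base at position 11 of miR-181a gives miR-181c. No other miRNA of the panel has this seed.

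The 3p arms, cut from the other side of the hairpins, carry different seeds. They are shown because they tell apart precursors that give the same 5p miRNA.
miR-181a-1-3p: aCCATCGAccgttgattgtacc
miR-181a-2-3p: aCCACCGAccgttgactgtacc
miR-181c-3p: aCCATCGAccgttgagtggacc
miR-181b-1-3p: cTCACTGAacaatgagtgcaa
miR-181b-2-3p: cTCACTGAtcaatgaatgc
In the forms shown, the arms of a-1 and c share their seed, and so do both b arms. For c this rests on where its commonest tag starts. The mature form known from other mammals has T in place of C at position 6 of miR-181a-2-3p, so the goat sequence shown is the C form. The letters at the 3′ ends, and the start of miR-181c-3p, are those of the commonest goat tags.

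All 4 members stood lower in involution than in lactation, and their sum was 1.86-fold lower (95% interval 1.82 to 1.90). Levels are tags per 1000000 clean tags of the library (TPM). The family total was 2422 TPM in lactation, from 43677 tags, and 1305 TPM in involution, from 9641 tags. Expressed as a log2 ratio of involution over lactation, this difference was -0.89.

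The most abundant member, miR-181a, stood at 2200 TPM (2178 to 2222) in lactation and 1176 TPM (1151 to 1201) in involution. The intervals of both levels lay far apart, and the ratio was 1.87-fold lower in involution (1.83 to 1.92), on 39667 and 8683 tags. Ranked by level among the 190 miRNAs with a tag, miR-181a moved from rank 27 in lactation to rank 40 in involution.

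Next came miR-181b, which is made from the same precursor clusters as miR-181a. It was measured at 213 TPM (206 to 219.8) in lactation and 125 TPM (117 to 133) in involution, or 1.70-fold lower (1.58 to 1.83). These intervals did not overlap either. Such a gap does not set the family apart, because counting intervals of abundant miRNAs are narrow. Those of let-7f lay apart too, at 38346 to 38527 TPM in lactation and 36672 to 36949 TPM in involution. Those of miR-532 overlapped, at 67.0 to 74.8 TPM and 64.0 to 76.2 TPM. Both examples were picked with their values in view. Overlap like that of miR-532 was rare among miRNAs at 10 TPM or more, but the share of all miRNAs without overlap was not counted. The rank of miR-181b by level was 68 in lactation and 101 in involution.

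The clustered pair miR-181c and miR-181d was rare. The level of miR-181d was 5.32 TPM (4.31 to 6.50) in lactation and 2.84 TPM (1.76 to 4.35) in involution, on 96 and 21 tags. That of miR-181c was 4.10 TPM (3.22 to 5.15) in lactation and 1.76 TPM (0.937 to 3.01) in involution, on 74 and 13 tags. Both stood lower in involution, miR-181d by 1.87-fold (1.16 to 3.16) and miR-181c by 2.33-fold (1.28 to 4.58). The intervals of these ratios excluded 1. So did that of the abundant let-7f, only 1.04-fold lower (1.04 to 1.05), while that of miR-532 (0.914 to 1.125) held 1. Intervals that held 1, like that of miR-532, were rare among miRNAs at 10 TPM or more, a level that miR-181c and miR-181d did not reach. Leaving out 1 therefore does not set the family apart, and the share of all miRNAs that did so was not counted. The ratio intervals of all 4 members overlapped, with the exception that those of miR-181a and miR-181b only just met.

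**Figure D1:**
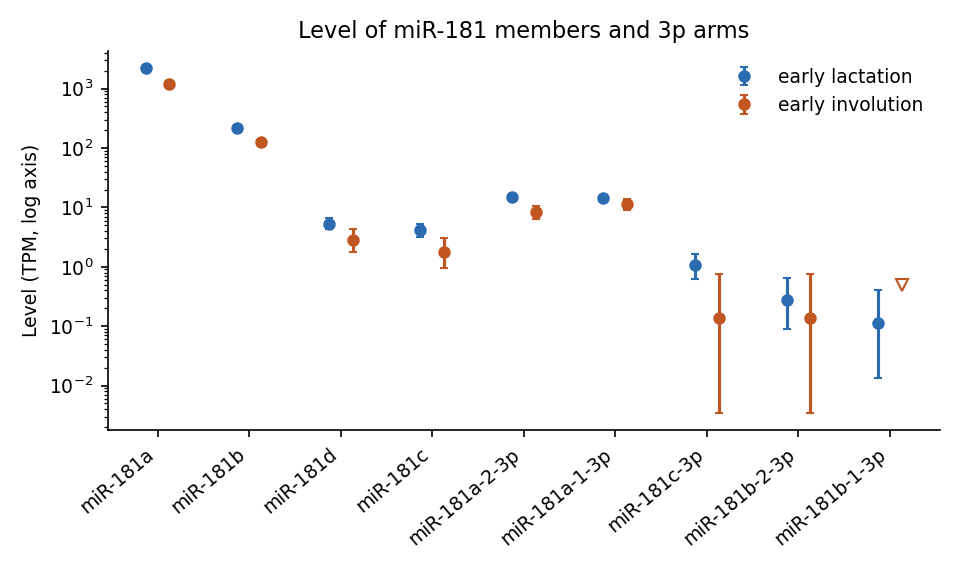
Level of each miR-181 member and 3p arm in TPM, on a log axis, in early lactation (blue) and early involution (orange); points are the 1 library per stage and bars the 95% Poisson interval. All 4 members lie lower in involution, and an open triangle marks the upper limit where miR-181b-1-3p had no tag.

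The make-up of the family differed little between the stages. Of the 5p tags, miR-181a took 90.8% (90.5 to 91.1%) in lactation and 90.1% (89.4 to 90.7%) in involution. The share of miR-181b was 8.79% in lactation and 9.58% in involution. There were 10.3 tags of miR-181a per tag of miR-181b in lactation and 9.40 in involution. At both stages miR-181c and miR-181d stayed under 1% each, with miR-181d at 0.220% and 0.218% and miR-181c at 0.169% and 0.135%. Ligation and amplification differ between sequences, so shares of tags are not shares of molecules.

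None of the family passed the limit for a difference of at least 2-fold. To be counted, a miRNA had to reach 10 TPM in a library and have a ratio of 2 or more, or of 0.5 or less, with an interval that left out 1. Of the 9 members and arms with a tag, 4 reached 10 TPM: miR-181a, miR-181b, miR-181a-1-3p and miR-181a-2-3p. Of these 4, 0 were counted as lower and 0 as higher. Among all 159 miRNAs at 10 TPM, 5.66% were counted as lower and 45.9% as higher. Without the limit on level, miR-181c and miR-181c-3p would be counted as lower, among 7.89% of all 190 miRNAs with a tag. In 1 random thinning of the lactation library to the depth of the other, miR-181a-2-3p alone passed, among 6.88% of all. It was 2.05-fold lower in that draw and 1.81-fold lower at full depth, and no other draw was made.

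Relative to all clean tags, most other miRNAs stood on the other side of 1. Over all 159 miRNAs the median log2 ratio was 0.83, or 1.78-fold higher in involution, against a median of -0.90 over the 4 members of the miR-181 family. A ratio under 1 was found for 51 of the 159. Of the 155 outside the family, 12 had a lower ratio than the family total. Scaling moves all ratios alike and decides this lean. With median-of-ratios factors, which shift every log2 ratio by -0.82, the median over all miRNAs was -0.09, and 27.8% of 158 were counted as lower and 33.5% as higher. Under those factors miR-181a was 3.31-fold and miR-181b 3.01-fold lower, and miR-181a-1-3p and miR-181a-2-3p passed the limit as well. With TMM factors, which shift them by -0.66, the median was 0.08, with 23.4% lower and 35.4% higher. There miR-181a was 2.95-fold and miR-181b 2.68-fold lower, and miR-181a-2-3p passed too. Each of the 4 members was lower in involution under all scalings tried.

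**Figure D2:**
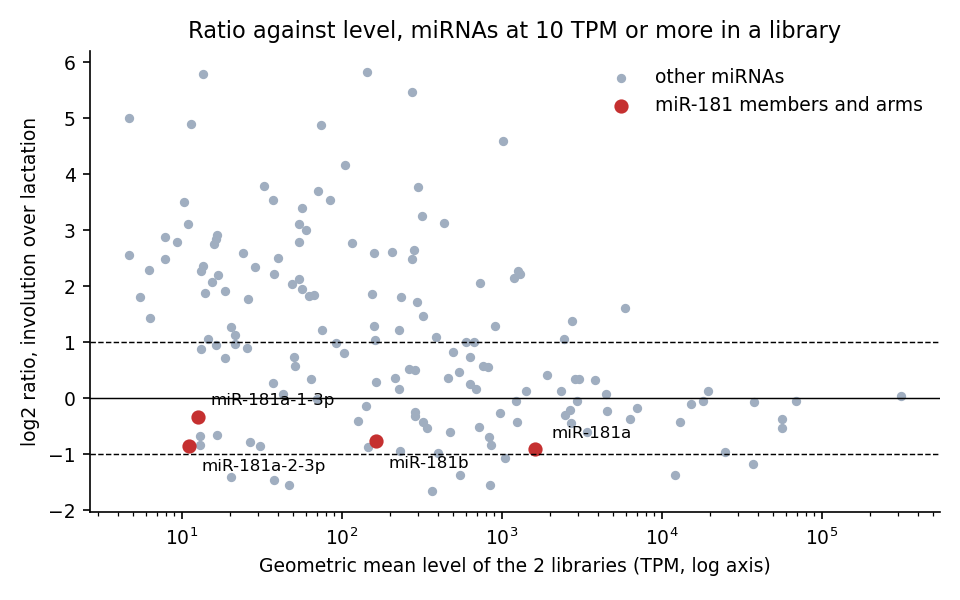
Each miRNA that reached 10 TPM in a library is drawn by its geometric mean level in TPM (log axis) and its log2 ratio of involution over lactation; dashed lines mark 2-fold and red points are miR-181 members and arms. The 4 red points lie between 0 and -1, under most of the other miRNAs, with levels relative to all clean tags.

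The miRNAs with ratios nearest to that of the family total, among 107 at 100 TPM or more, were miR-183, miR-196b, miR-155, miR-30a-5p and miR-99b. Their log2 ratios were -0.88, -0.94, -0.83, -0.97 and -0.99. Likeness here is the distance between ratios of 2 libraries and says nothing more.

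Since miR-181 is abundant in lymphocytes, the leukocyte miRNAs are set beside it. Of 6 on the list, 5 were counted as higher in involution, against 45.9% of all miRNAs, and the summed level was 1383 TPM in lactation and 1676 TPM in involution. The lymphocyte miRNAs miR-150 and miR-342 were 5.69 and 10.5 times higher. The granulocyte miRNA miR-223 was 8.60 times higher, and the pan-leukocyte pair miR-142-3p and miR-142-5p was 3.30 and 3.40 times higher. The remaining one, miR-155, which is induced in activated lymphocytes, was on the same side as the miR-181 family at 1152 TPM in lactation and 648 TPM in involution. Of 7 epithelial miRNAs 3 were higher, of 5 stromal 2, of 2 endothelial 1, of 3 erythroid 2 and of 3 muscle miRNAs 0, while the milk-rich miR-148a was lower. Apart from muscle and miR-148a, with 0 higher, and the 2 of 3 erythroid, these counts lie near the 45.9% over all miRNAs. With median-of-ratios factors 3 of the 6 leukocyte miRNAs were higher, against 33.5% of all, and miR-155 was lower; with TMM factors 5 were higher, against 35.4%, and miR-155 was lower. No miRNA on these lists was at 0 in either library. The part of cell make-up in the level of miR-181 was not tested.

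The shorter tags of miR-181a were lower in involution by a larger factor than its longer tags. Tags of miR-181a of at most 21 nt stood at 1443 TPM (1425 to 1461) in lactation and 453 TPM (438 to 469) in involution, or 3.18-fold lower (3.07 to 3.30). Tags of at least 22 nt stood at 757 TPM (744 to 770) in lactation and 722 TPM (703 to 742) in involution, or 1.05-fold lower (1.02 to 1.08). Of the difference in TPM between the libraries, the shorter class made up 96.6%. Tags with a mismatched last base are in neither class. The commonest, a 23-nt tag with a last A, stood at 223 TPM in lactation and 143 TPM in involution. How far each class differed varied by scaling. With median-of-ratios factors the shorter class was 5.63-fold and the longer 1.85-fold lower, and the shorter made up 77.3% of the difference. With TMM factors the values were 5.01-fold, 1.65-fold and 79.5%. The ratio of the classes to each other is the same under any scaling. Counted by tags of at most 21 nt alone, miR-181a and miR-181b passed the limit, among 8.2% of 122 miRNAs. This split, like the other comparisons of tag ends, was chosen after the values had been seen.

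The main forms of miR-181a show the pattern base by base. They begin at the same base with the same seed and end at different bases; capitals mark what each has beyond the 19-nt form.
miR-181a, 19 nt: aacattcaacgctgtcggt
miR-181a, 21 nt: aacattcaacgctgtcggtGA
miR-181a, 22 nt: aacattcaacgctgtcggtGAG
miR-181a, 23 nt: aacattcaacgctgtcggtGAGT
miR-181a, 24 nt: aacattcaacgctgtcggtGAGTT
The 21-nt form was the commonest in lactation, at 1150 TPM, and stood at 338 TPM in involution, 3.41-fold lower (3.27 to 3.55). The 19-nt form went from 185 to 66.9 TPM and the 20-nt form from 102 to 43.1 TPM. All 3 were over 2-fold lower, and they differed among themselves in size.

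From 22 nt on, the forms differed less or stood higher in involution. Tags of 22 nt stood at 182 TPM in lactation and 200.1 TPM in involution, a ratio of 1.10 (1.03 to 1.17). The 23-nt form, the full mature sequence, was 549 and 432 TPM, 1.27-fold lower (1.22 to 1.32), and was the commonest form in involution. Tags of 24 nt were 3.01 times higher in involution (2.54 to 3.58), at 13.5 and 40.6 TPM. Those of 25 nt were 4.79 times higher (3.94 to 5.84), at 8.76 and 42.0 TPM. After scaling by median-of-ratios or TMM, the 22-nt form turned to the lower side, at ratios of 0.621 and 0.697. Under these factors the 24-nt form stayed higher, at 1.70 and 1.91 times, as did the 25-nt form, at 2.71 and 3.04 times. The order of the forms does not change with the scaling.

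A like pattern was found in miR-181b. Its tags of at most 21 nt stood at 101 TPM in lactation and 35.9 TPM in involution, 2.82-fold lower (2.48 to 3.22). Those of at least 22 nt stood at 112 and 89.2 TPM, 1.25-fold lower (1.15 to 1.37). The shorter class made up 74.3% of the difference, or 56.9% after median-of-ratios scaling and 58.7% after TMM scaling. Under these the longer class was 2.22-fold and 1.97-fold lower. By single length, the 21-nt form was 2.73-fold lower in involution (2.36 to 3.18), the 24-nt form stood at 19.9 TPM at both stages, and the 25-nt form was 3.81 times higher (2.64 to 5.55). After the same scalings the 24-nt form was 1.76-fold and 1.57-fold lower, and the 25-nt form 2.15 and 2.42 times higher.

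**Figure D3:**
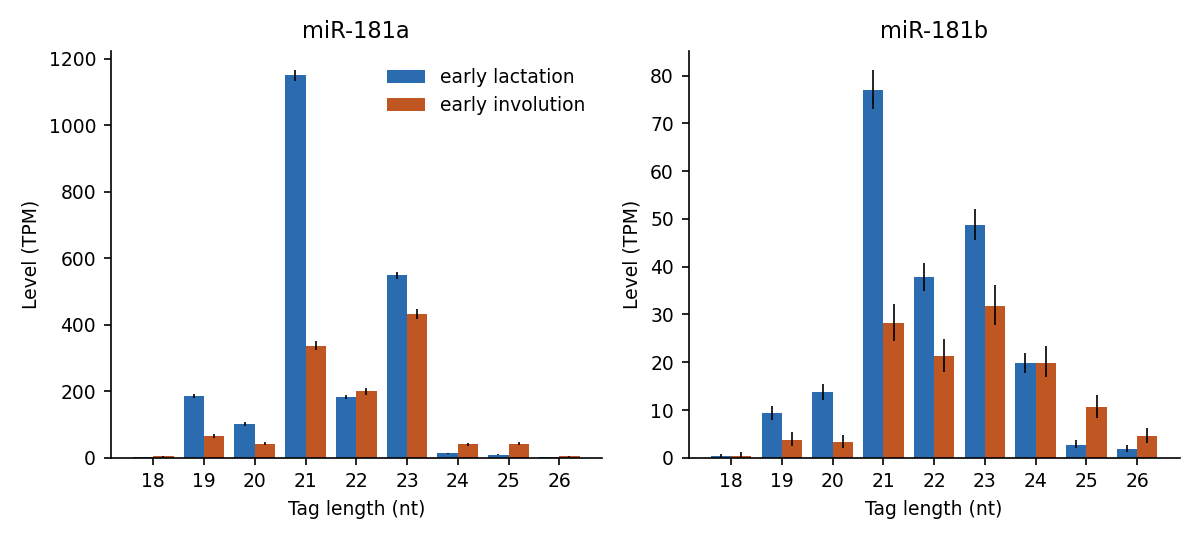
Level in TPM of the tags of miR-181a (left) and miR-181b (right) that start at the first base, by tag length in nt, in early lactation (blue) and early involution (orange); bars are single libraries with 95% Poisson intervals. The 21-nt bar of miR-181a stands at 1150 TPM in lactation and 338 in involution, while its bars of 24 and 25 nt are higher in involution.

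As shares, tags of miR-181a shorter than the mature sequence were 73.9% (73.4 to 74.3%) in lactation and 55.6% (54.5 to 56.6%) in involution. Longer tags were 1.11% (1.01 to 1.22%) and 7.53% (6.99 to 8.11%). For miR-181b the shorter tags were 65.2% (63.7 to 66.7%) and 45.7% (42.4 to 48.9%), and the longer tags 11.7% (10.7 to 12.8%) and 28.6% (25.7 to 31.6%). No interval of these shares overlapped between the stages, but the intervals cover counting error only. Such shares were not computed for miRNAs outside the family. No scaling between libraries enters a share within 1 miRNA.

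The rarer members miR-181c and miR-181d did not resolve this. Shorter tags of miR-181d were 43.8% in lactation (33.6 to 54.3%) and 52.4% in involution (29.8 to 74.3%), and those of miR-181c 25.7% (16.2 to 37.2%) and 15.4% (1.92 to 45.4%). Both pairs of intervals overlapped. In miR-181a-1-3p the shorter tags were 28.4% (22.97 to 34.3%) and 45.8% (34.8 to 57.1%), in the opposite direction to miR-181a. These intervals only just missed each other, on 73 of 257 and 38 of 83 tags. No such shares outside the family were computed to set beside them. Shorter tags of miR-181a-2-3p were 25.7% and 21.3%, with overlapping intervals.

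The mean tag length of miR-181a went from 21.4 nt in lactation to 22.01 nt in involution, a gain of 0.611 nt. That of miR-181b went from 21.9 to 22.6 nt, a gain of 0.737 nt. Among 98 miRNAs with at least 500 tags starting at the first base in both libraries, 52 were longer and 46 shorter in involution, with a median change of 0.0092 nt. In this order miR-181b had rank 4 and miR-181a rank 6 from the greatest gain. The minimum of 500 was chosen so that miR-181b entered. At 1000 tags, 84 miRNAs remained, miR-181a had rank 3, and the median change was -0.011 nt.

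**Figure D4:**
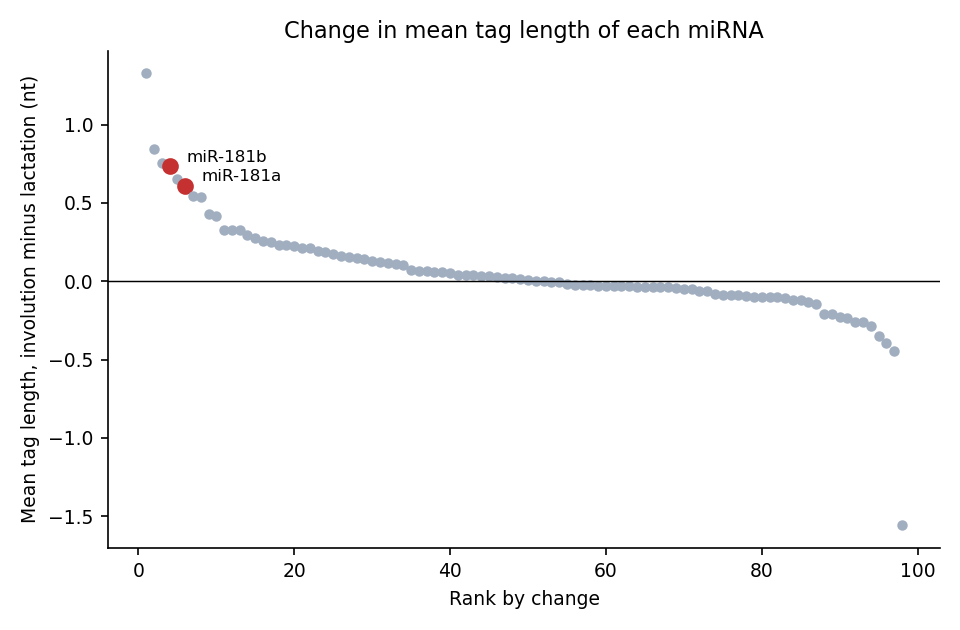
Difference in mean tag length in nt, involution minus lactation, for 98 miRNAs ordered from the greatest gain to the greatest loss; red points are miR-181b (0.737 nt) and miR-181a (0.611 nt). Most of the other miRNAs lie close to 0.

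The bases beyond the mature 3′ end were mostly T. Of the longer miR-181a tags that began at the first base, 91.6% carried T alone as the extra bases in lactation (88.5 to 93.98%) and 89.8% in involution (87.2 to 92.01%). For miR-181b the shares were 92.8% (89.9 to 94.996%) and 86.8% (82.1 to 90.7%). The intervals overlapped for both. Bases copied from the precursor cannot be told apart from bases added afterwards, since no hairpin sequence was used here.

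Among the counted tags, the 5′ end, which sets the seed, was nearly fixed. The rule set part of this, because tags with extra bases there, or lacking more than 2, were not counted. Tags that lacked 1 base there were 0.161% of miR-181a in lactation and 0.207% in involution, with overlapping intervals (0.124 to 0.206% and 0.123 to 0.327%). Tags that lacked 2 bases were rarer still, with only 3 in lactation and 11 in involution. Their shares were 0.0076% (0.0016 to 0.022%) and 0.127% (0.063 to 0.227%), without overlap. Such 5′ shares were not computed for miRNAs outside the family, so how often a gap like this arises is unknown. For miR-181b, tags that lacked 1 base were 0.703% (0.464 to 1.02%) and 1.19% (0.596 to 2.12%), with overlapping intervals. No tag of miR-181b lacked 2 bases in either library.

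A common form outside the rule has A as the last of the 23 bases of miR-181a, in place of T. It is shown because its level was of the same order as that of the 22-nt form. The 22-nt form stood lower than it in lactation, at 182 TPM, and higher in involution, at 200.1 TPM.
miR-181a with a last A: aacattcaacgctgtcggtgagA
This tag was counted 4017 times in lactation, or 223 TPM, and 1059 times in involution, or 143 TPM. The matching tag of miR-181b stood at 25.0 and 13.8 TPM. Counting tags with any mismatched last base left the family log2 ratio at -0.87.

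The 3p arms were far rarer than the 5p members. Per 3p tag there were 79.1 5p tags in lactation and 66.0 in involution. The level of miR-181a-1-3p was 14.3 TPM in lactation (12.6 to 16.1) and 11.2 TPM in involution (8.95 to 13.9), a ratio of 0.788 whose interval, 0.608 to 1.01, held 1. That of miR-181a-2-3p was 14.9 TPM (13.2 to 16.8) and 8.26 TPM (6.32 to 10.6), 1.81-fold lower (1.36 to 2.43). Of the tags of both arms, the share of miR-181a-1-3p was 48.9% (44.5 to 53.2%) in lactation and 57.6% (49.1 to 65.8%) in involution, and these intervals overlapped. This counts the C form of miR-181a-2-3p alone. With its T form, 71 tags in lactation and 1 in involution, the shares of miR-181a-1-3p were 43.0% (39.04 to 47.1%) and 57.2% (48.8 to 65.4%). These intervals did not overlap, but the gap rests on the T form, whose origin was not tested. No like share was computed for other miRNAs.

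The other arms were close to the limit of detection, where 3 counts equal 0.166 TPM in lactation and 0.406 TPM in involution. There were 19 tags of miR-181c-3p in lactation and 1 in involution, 7.78-fold lower with an interval of 1.24 to 323. For miR-181b-2-3p the counts were 5 and 1, and for miR-181b-1-3p 2 and 0. No tag of miR-181d-3p was found in either library.

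Because miR-181c and miR-181d lie so close in sequence to abundant members, their tags were set against those of other near copies. By the first 18 bases, the miR-181d sequence had 114 tags in lactation and 28 in involution, or 2.38% and 2.58% of the tags of miR-181b. Of 51 other single substitutions of miR-181b that are not also 1 substitution from miR-181a, the commonest reached 0.125% in lactation and 0.185% in involution. The same change of C12T in miR-181a reached 0.131% and 0.253%. The miR-181c sequence had 90 and 16 tags, or 0.203% and 0.162% of miR-181a, whereas the commonest of 12 other single deletions reached 0.0248% and 0.0303%. Both rare members thus stood above the near copies counted the same way at either stage.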

How the data were processed

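Small RNA of 18 to 30 nt was selected, ligated to adaptors, amplified and sequenced on a Solexa instrument, per the labels. The deposited values are raw counts of reads for each distinct clean tag, listed with its length of up to 44 nt. The sources used here name no aligner and no genome build. The members and lists were chosen with earlier results of these data known. Mature miRNAs were recognised by starting keys of 12 to 23 nt written from general knowledge, after the tags had been looked at, for 191 names. Reference sequences are the most abundant matching tags. The 181 names outside the family used tags of 20 to 24 nt for this. The key of miR-181a-2-3p, the start of miR-181c-3p and the length of miR-181b-2-3p follow the goat tags. Panel miRNAs took 82.0% of clean tags in lactation and 75.7% in involution, and tags that fitted more than 1 name (0.0339% and 0.0643%) were set aside. The lactation library was 2.44 times deeper. Levels are counts over the total of clean tags. Intervals are 95% intervals: exact Poisson for levels, Clopper-Pearson for shares and conditional Clopper-Pearson for ratios. Reads carried no molecular identifiers, so intervals cover counting error only.

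MiRNAs named by rule are the members, the 3p arms with a tag and the leukocyte list. The 5 miRNAs with the nearest log2 ratios at 100 TPM or more were named by rule too. Others were named with their values in view: miR-148a, the examples let-7f and miR-532, and the partners of joined tags (let-7b, miR-24, miR-21). Alternatives covered scaling, assignment, depth and the level limit. The split of tags at 21 and 22 nt, the last base, the C6T form, the 1000-tag minimum and the scaling of tag-length values and marker lists were added after seeing the data. The procedure was tested on simulated counts. Python 3.11.15, numpy 2.4.6, scipy 1.17.1, R 4.3.3 and edgeR 4.0.16 (TMM factors) were used.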

Additional observations from a re-analysis of the deposited data

Results flagged for a closer look

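Signals outside the counted tags appeared in lactation above the 3 counts that a count of 0 allows. The T form of miR-181a-2-3p, which differs from the goat form by C6T, had 71 tags in lactation and 1 in involution.
miR-181a-2-3p, C form: accacCgaccgttgactgtacc
miR-181a-2-3p, T form: accacTgaccgttgactgtacc
The capital marks position 6 from the 5′ end. It made up 20.9% of both forms in lactation (16.7 to 25.6%) and 1.61% in involution (0.0408 to 8.66%), and these intervals did not overlap. With both forms counted, the log2 ratio of the arm was -1.17 in place of -0.85.

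Tags of at least 31 nt that held the first 18 bases of a family member or arm, joined to other sequence, were counted 103 times in lactation (5.71 TPM) and 2 times in involution (0.271 TPM). Of the 103, 67 held the T form, in 32 distinct sequences, and 0 held the C form, although the C form had 269 single tags. In 40 of the 67 the other sequence was let-7b, and in 10 it was miR-24. The commonest joined pair of another member was miR-181a with miR-21, at 13 tags. The origin of the T form and of the joined tags was not tested.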

How the results depend on the processing

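The family log2 ratio stayed negative under every alternative run. It was -1.55 after TMM scaling, -1.71 after median-of-ratios scaling, -0.78 relative to panel tags, -0.37 with identical tags, -0.86 with tags of at least 20 nt, -0.10 with tags of at least 22 nt and -1.66 with tags of at most 21 nt. All 52 recomputed log2 ratios of the 4 members were below 0. The number of members and arms counted as lower, 0 as reported, was 4 with median-of-ratios factors and 3 with TMM factors. It was 2 without the level limit and 2 with tags of at most 21 nt (miR-181a and miR-181b). In the 1 random draw that thinned the lactation library it was 1 (miR-181a-2-3p, at 2.05-fold on 125 and 61 tags). Over all miRNAs the lower calls in these settings were 27.8%, 23.4%, 7.89%, 8.2% and 6.88%, against 5.66% as reported. The share of miR-181a in lactation was 91.1% with identical tags, 89.88% by the first 18 bases, 89.89% with 1 mismatch, 90.5% with tags of at least 20 nt, 90.02% with mismatched last bases, 86.4% with tags of at least 22 nt and 93.3% with tags of at most 21 nt. In involution it was 92.7% with identical tags, 88.6% with tags of at least 22 nt and 92.5% with tags of at most 21 nt. Of 40 recomputed shares of shorter tags, 31 lay within the interval of the reported value. All that moved belonged to miR-181a and miR-181b, while the intervals of miR-181c and miR-181d were wide. By the first 18 bases, shorter tags of miR-181a were 67.1% in lactation and 49.6% in involution, against 73.9% and 55.6% as reported. Depth limited miR-181c, miR-181d and the b and c 3p arms. No paired analysis was possible because each group has 1 library.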
